A study of Mus musculus with 7 samples.

Results

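Broad HDAC1 peaks at the promoters of protein-coding genes were examined in mouse limb buds. A peak was counted as broad when the deposited list gave it a length of at least 2000 bp, and as promoter-associated when it overlapped by at least 1 bp a window around the transcription start site (TSS) of a protein-coding transcript. The window ran from 2 kb before the TSS to 1 kb after it. By this rule 435 of the 15347 HDAC1 peaks (2.83%) were broad promoter peaks. The members were thus chosen by their length and their position at a TSS, so their lengths and their places in the list are given as a description, without a test.

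The data came from ChIP-seq, in which an antibody against HDAC1 recovers the DNA bound by the protein from fixed chromatin. There were 4 HDAC1 ChIP samples and 3 samples of input chromatin, all from wild-type Swiss Webster embryos at E11.5 with 40 to 44 somites. Forelimb and hindlimb buds from 3 litters were pooled in each sample, so a peak cannot be assigned to a limb type or to a cell type of the bud. The authors combined the ChIP samples into 1 list of peak coordinates, so no peak has a value per sample or a replicate error. No read number stands behind a peak in the list, the depth is unknown from it, and the intervals below are 95% Wilson intervals for shares and distribution-free 95% intervals for medians, taken over peaks or genes, which are not biological replicates and are not independent where they neighbour each other.

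HDAC1 takes acetyl groups off lysines of histone tails and so counters the histone acetyltransferases. It works mainly as a subunit of the Sin3, NuRD and CoREST corepressor complexes, which sequence-specific transcription factors bring to their sites. Genome-wide, HDAC1 is known to sit at the promoters of active genes as well as of silenced ones, where acetyl groups are added and removed in turn. In the limb bud, transcription factors of the HOX, TBX, LIM homeodomain and other families set the axes, while Sonic hedgehog, FGF, BMP and WNT ligands carry signals between the mesenchyme and the overlying ectoderm.

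The sequence of the DNA under broad peaks is shown first, because every member overlapped CpG-dense DNA over at least a part of its length, as described further on. The examples are the 5 highest-placed members for which the RefSeq promoter lay inside the peak, the downstream edge lay in an intron and no annotated exon lay in either stretch shown. The stretches are the 250 bases before the RefSeq transcription start on the mm10 (GRCm38) build, written 5′ to 3′ on the strand of the gene, with each CpG dinucleotide in capitals.
Bahcc1, chr11:120232697-120232946, plus strand: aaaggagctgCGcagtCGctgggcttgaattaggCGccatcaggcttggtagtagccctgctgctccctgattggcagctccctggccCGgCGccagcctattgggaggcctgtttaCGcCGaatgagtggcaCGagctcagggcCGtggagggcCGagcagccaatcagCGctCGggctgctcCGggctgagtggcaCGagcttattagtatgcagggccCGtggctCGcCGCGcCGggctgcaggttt
Tnrc18, chr5:142817663-142817912, minus strand: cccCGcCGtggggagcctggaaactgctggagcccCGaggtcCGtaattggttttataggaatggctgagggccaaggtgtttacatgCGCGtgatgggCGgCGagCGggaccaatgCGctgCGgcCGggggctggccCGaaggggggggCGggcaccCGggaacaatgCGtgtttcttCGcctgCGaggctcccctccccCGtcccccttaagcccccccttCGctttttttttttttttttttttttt
Midn, chr10:80148022-80148271, plus strand: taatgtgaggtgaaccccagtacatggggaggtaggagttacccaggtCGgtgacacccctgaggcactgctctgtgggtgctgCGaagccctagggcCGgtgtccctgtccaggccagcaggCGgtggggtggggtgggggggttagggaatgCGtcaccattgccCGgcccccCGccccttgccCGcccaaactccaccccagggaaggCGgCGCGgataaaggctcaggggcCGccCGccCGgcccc
Rcc2, chr4:140701223-140701472, plus strand: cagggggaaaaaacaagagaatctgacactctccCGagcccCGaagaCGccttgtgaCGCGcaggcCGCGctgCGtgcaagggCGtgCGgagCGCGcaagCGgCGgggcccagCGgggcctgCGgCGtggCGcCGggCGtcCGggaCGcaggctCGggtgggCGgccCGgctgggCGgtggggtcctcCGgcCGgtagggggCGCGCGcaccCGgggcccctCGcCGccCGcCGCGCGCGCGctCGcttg
Trim71, chr9:114564370-114564619, minus strand: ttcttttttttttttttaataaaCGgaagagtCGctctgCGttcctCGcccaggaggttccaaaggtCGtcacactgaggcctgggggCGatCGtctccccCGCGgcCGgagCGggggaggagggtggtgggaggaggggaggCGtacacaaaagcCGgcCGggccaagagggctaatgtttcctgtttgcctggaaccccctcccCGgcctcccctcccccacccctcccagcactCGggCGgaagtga

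These promoters held 19 CpG dinucleotides in 250 bases at Bahcc1, 20 at Tnrc18, 14 at Midn, 41 at Rcc2 and 17 at Trim71. Rcc2, which encodes a regulator of chromosome condensation, thus had the most CpG-dense stretch of the 5. Bahcc1 encodes a chromatin protein with a BAH domain, and Trim71 encodes an RNA-binding protein of early development that is a known target of the let-7 microRNA.

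The other end of the same peaks looked different. The last 100 bases of each peak, at its downstream edge within an intron of the gene, are written in the same way.
Bahcc1, chr11:120241350-120241449, plus strand: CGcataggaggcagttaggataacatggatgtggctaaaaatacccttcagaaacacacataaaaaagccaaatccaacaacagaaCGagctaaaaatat
Tnrc18, chr5:142812500-142812599, minus strand: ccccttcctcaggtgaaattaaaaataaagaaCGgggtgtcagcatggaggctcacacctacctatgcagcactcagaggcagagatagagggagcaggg
Midn, chr10:80152750-80152849, plus strand: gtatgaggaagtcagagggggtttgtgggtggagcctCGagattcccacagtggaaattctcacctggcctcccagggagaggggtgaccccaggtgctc
Rcc2, chr4:140703350-140703449, plus strand: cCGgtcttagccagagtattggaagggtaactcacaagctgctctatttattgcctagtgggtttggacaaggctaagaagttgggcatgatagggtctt
Trim71, chr9:114560250-114560349, minus strand: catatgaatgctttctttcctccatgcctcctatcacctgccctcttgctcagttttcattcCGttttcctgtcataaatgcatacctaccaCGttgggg

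These edges held 2 CpG dinucleotides in 100 bases at Bahcc1 and Trim71 and 1 at Tnrc18, Midn and Rcc2. The far end of the stretch lay 8502 bp from the TSS at Bahcc1, 5162 bp at Tnrc18, 4577 bp at Midn, 1976 bp at Rcc2 and 4119 bp at Trim71. In all 5 examples the peak thus joined a promoter to intronic DNA with 1 or 2 CpG dinucleotides in its last 100 bases. In the same gene order, the ratio of observed to expected CpG was 0.72, 0.85, 0.47, 1.08 and 0.69 before the start. At the edge it was 0.56, 0.15, 0.12, 0.20 and 0.45. The Midn promoter stretch was below the ratio of 0.6 used further on for CpG-dense DNA, and intronic edges were a condition of the choice.

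For contrast, the promoter of the ribosomal protein gene Rpl23 lay under a peak of 1000 bp at place 6231 of the list. Among the narrow peaks at genes of cytosolic ribosomal proteins it was the only one that held the whole RefSeq promoter with no annotated exon in the 250 bases before the start.
Rpl23, chr11:97782440-97782689, minus strand: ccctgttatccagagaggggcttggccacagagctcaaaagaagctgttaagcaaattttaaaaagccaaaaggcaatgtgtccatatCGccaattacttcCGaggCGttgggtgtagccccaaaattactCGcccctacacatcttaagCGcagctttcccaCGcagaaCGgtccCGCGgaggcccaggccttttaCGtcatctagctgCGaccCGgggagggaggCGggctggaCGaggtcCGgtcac

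The Rpl23 stretch held 15 CpG dinucleotides in 250 bases, which is within the range of the 5 broad examples.

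The list was ordered by the authors, with the first peak ranked highest, and broad promoter peaks stood near its top. Their median place was 561 (interval 474 to 639, n = 435), the first was at place 1 and the last at place 4759. Of the 435 members, 429 lay among the first 3836 peaks of the list, where they made up 11.2%, and the other 6 lay among the next 3837. The remainder of the list held 0 members. Among the first 100 peaks 65 were broad promoter peaks, among the first 500 there were 203, and among the first 1000 there were 297.

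Most members were only moderately longer than the minimum. The median length was 2550 bp (interval 2450 to 2650 bp), the lower and upper quartiles were 2150 and 3350 bp, and the longest peak measured 35050 bp. There were 203 members below 2500 bp, 91 from 2500 bp to below 3000 bp, 74 from 3000 bp to below 4000 bp, 43 from 4000 bp to below 6000 bp and 24 of 6000 bp or more. From the shortest to the longest of these classes the median place in the list was 905, 554, 414, 119 and 78.5. Across the 435 members Spearman's rho between length and place was -0.43, as a description over peaks that share the same libraries. The list analysed here holds coordinates alone. The published table of these peaks is described as also giving each one a fold change and a false discovery rate, and as these were not used here, length was not separated from strength of binding in this order.

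The length minimum did not fall in a gap of the distribution. At exactly 2000 bp there were 37 promoter peaks, of which those at Ctdsp2, Tfap4 and Phf21a stood highest in the list, at places 72, 81 and 142. At 1950 bp, just under the minimum, there were 28 promoter peaks, led by those at Tent4a, Efcc1 and Gtf2i at places 130, 323 and 372. Altogether 10324 promoter peaks were shorter than 2000 bp. They are called narrow promoter peaks below, and they had a median length of 550 bp.

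**Figure D1:**
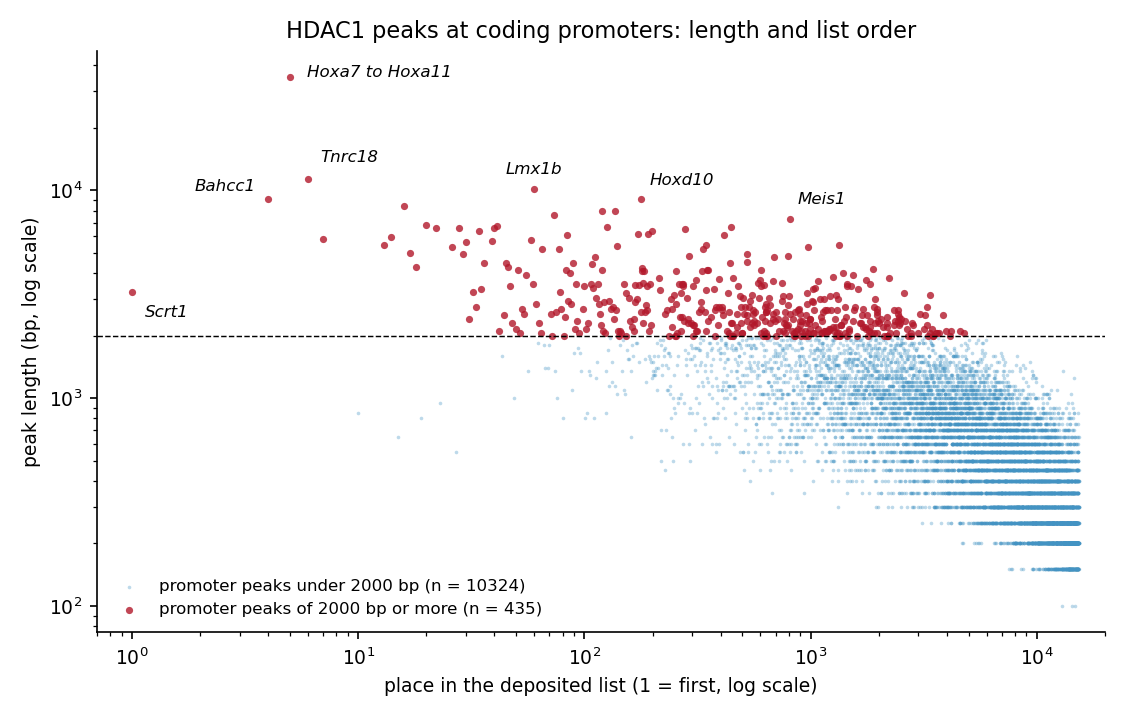
Length of each promoter peak (bp, log scale) against its place in the deposited list (log scale), with the 435 broad promoter peaks in red, the 10324 narrow promoter peaks in blue and the 2000 bp minimum as a dashed line. The broad peaks lie among the first 4759 places, and the 35050 bp peak over Hoxa7 to Hoxa11 stands apart from the next longest, of 11400 bp.

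The longest broad peaks lay over genes of limb patterning and over Tnrc18 and Bahcc1, a pair of genes for chromatin-related proteins. The first was a single peak of 35050 bp at place 5 (chr6:52215200-52250249) that held the TSSs of Hoxa7, Hoxa9, Hoxa10 and Hoxa11. HOXA proteins specify position along the limb, with Hoxa11 acting in its middle segment. The peak continued 4439 bp upstream of the most 5′ Hoxa11 TSS and 30611 bp downstream of it. It was flanked by 12 further HDAC1 peaks within 10 kb. The Hoxa11 antisense RNA Hoxa11os also started inside it.

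At Tnrc18, which encodes a BAH domain protein related to Bahcc1, a peak of 11400 bp stood at place 6 (chr5:142812500-142823899). It covered 6237 bp upstream and 5163 bp downstream of the TSS and was the member with the most bases upstream. At Bahcc1 a peak of 9050 bp stood at place 4 (chr11:120232400-120241449), and it lay almost wholly on the gene side, with 8503 bp downstream and 547 bp upstream. Bahcc1 had a second broad peak of 3250 bp at place 32, which ended 1098 bp upstream of the TSS.

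Lmx1b, the LIM homeodomain gene that gives the limb its dorsal identity, carried a peak of 10150 bp at place 60 (chr2:33635250-33645399). It ran 5262 bp into the gene and 4888 bp upstream, so it was close to symmetric about the TSS. Hoxd10 carried a peak of 9050 bp at place 178, with 6124 bp of it upstream toward Hoxd11 and 2926 bp downstream. The neighbouring Hoxd11 had its own broad peak of 5950 bp at place 14 (3423 bp upstream and 2527 bp downstream).

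Hand2, which acts upstream of Sonic hedgehog in the posterior bud, carried a peak of 8450 bp at place 16 (chr8:57319600-57328049). It covered the whole transcript of 3651 bp and ran 7067 bp downstream and 1383 bp upstream of the TSS. Prrx1, a homeobox gene of limb mesenchyme, had 8000 bp at place 120, of which 6411 bp lay downstream, and it ended in the first intron. Wnt5a, the ligand that drives outgrowth of the bud, also had 8000 bp, at place 136, with 7450 bp downstream.

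Pitx1, which is expressed in the hindlimb and sets its identity, carried 7650 bp at place 73. Its peak covered the whole transcript of 6375 bp. Meis1, a marker of the proximal bud, had the tenth longest member, with 7300 bp at place 807, and the latest place of the 10.

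**Figure D2:**
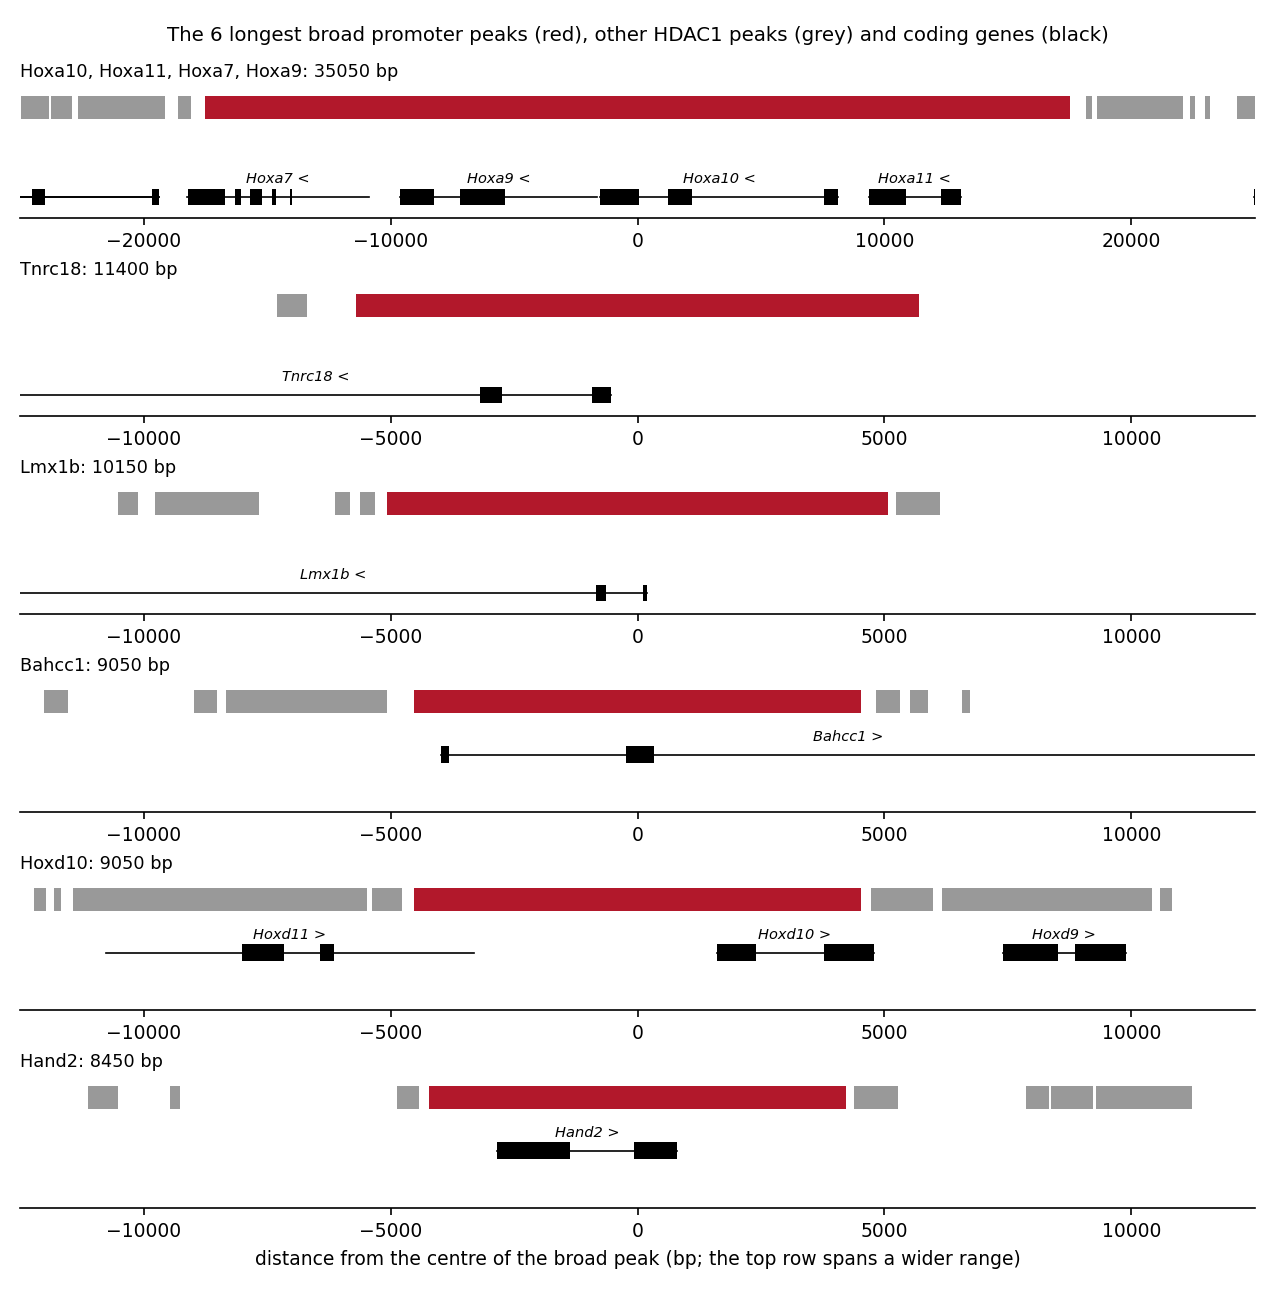
The 6 longest members drawn to scale against distance from the centre of the peak (bp), with the broad peak in red, other HDAC1 peaks in grey and protein-coding genes as black lines whose boxes are exons of coding transcripts; the sign after a name gives the direction of transcription and the top row spans a wider range. The 35050 bp peak covers 4 Hoxa promoters without a break, and the peak at Lmx1b extends about equally to both sides of its TSS.

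The members highest in the list were partly the same loci. Place 1 was held by a peak of 3250 bp at Scrt1 (chr15:76520600-76523849), which encodes a zinc finger repressor best known from neurons. It reached 1900 bp downstream and 1350 bp upstream. After Bahcc1, the Hoxa peak and Tnrc18 came Zfp36l2 at place 7, an RNA-binding protein gene whose peak of 5850 bp covered the whole transcript of 4017 bp. Mex3b, another RNA-binding protein gene, followed at place 13 with 5450 bp. The Wnt receptor gene Fzd2 at place 17 (5000 bp) and the hedgehog co-receptor gene Gas1 at place 18 (4300 bp) completed the first 10 members.

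A coding TSS lay inside 406 of the 435 members (93.3%, interval 90.6 to 95.3%). For these the most 5′ coding TSS inside the peak was taken as the reference, and where a peak held several genes, the gene with the most bases covered on its downstream side. The median member reached 1820.5 bp downstream (interval 1749 to 1889 bp, n = 406) and 669 bp upstream (interval 596 to 748 bp). The choice of the most 5′ TSS favours downstream bases by construction. With the TSS nearest the midpoint of the peak instead, the medians were 1640 bp downstream and 875 bp upstream, and the downstream side was still the longer one.

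Downstream of the TSS, 170 members (41.9%) covered at least 2000 bp, 67 at least 3000 bp, 35 at least 4000 bp and 21 at least 5000 bp. Upstream, 25 members (6.16%) covered at least 2000 bp and 2 covered at least 5000 bp. In 346 of 406 members (85.2%, interval 81.4 to 88.3%) more of the peak lay downstream than upstream. The same held for 5311 of 6400 narrow promoter peaks with a TSS inside (83.0%, interval 82.0 to 83.9%), and the intervals overlapped. With the TSS nearest the midpoint the shares were 75.9% for broad and 77.0% for narrow peaks. The lean toward the gene was therefore seen at both widths, and its median share of the peak was 74.8% for broad and 74.1% for narrow peaks.

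Members with a single gene start allow the same measurement without a choice of TSS. There were 174 members whose coding TSSs lay within 100 bp of each other, and they had medians of 1833 bp downstream and 694 bp upstream. Of them 149 (85.6%, interval 79.7 to 90.1%) had more bases downstream.

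With the most 5′ coding TSS as the reference, additional length lay mostly on the gene side. From members below 2500 bp to members of 6000 bp or more, the median downstream reach went from 1525 to 5639 bp and the median upstream reach from 629 to 1314 bp. Spearman's rho between length and bases downstream was 0.70 across the 406 members, and between length and bases upstream it was 0.23. Both parts add up to the length, so these correlations are descriptions and carry no test. The most 5′ TSS can also lie farther upstream in a longer peak, which favours the downstream part. The trend over length was not measured for members with a single gene start or with the TSS nearest the midpoint.

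**Figure D3:**
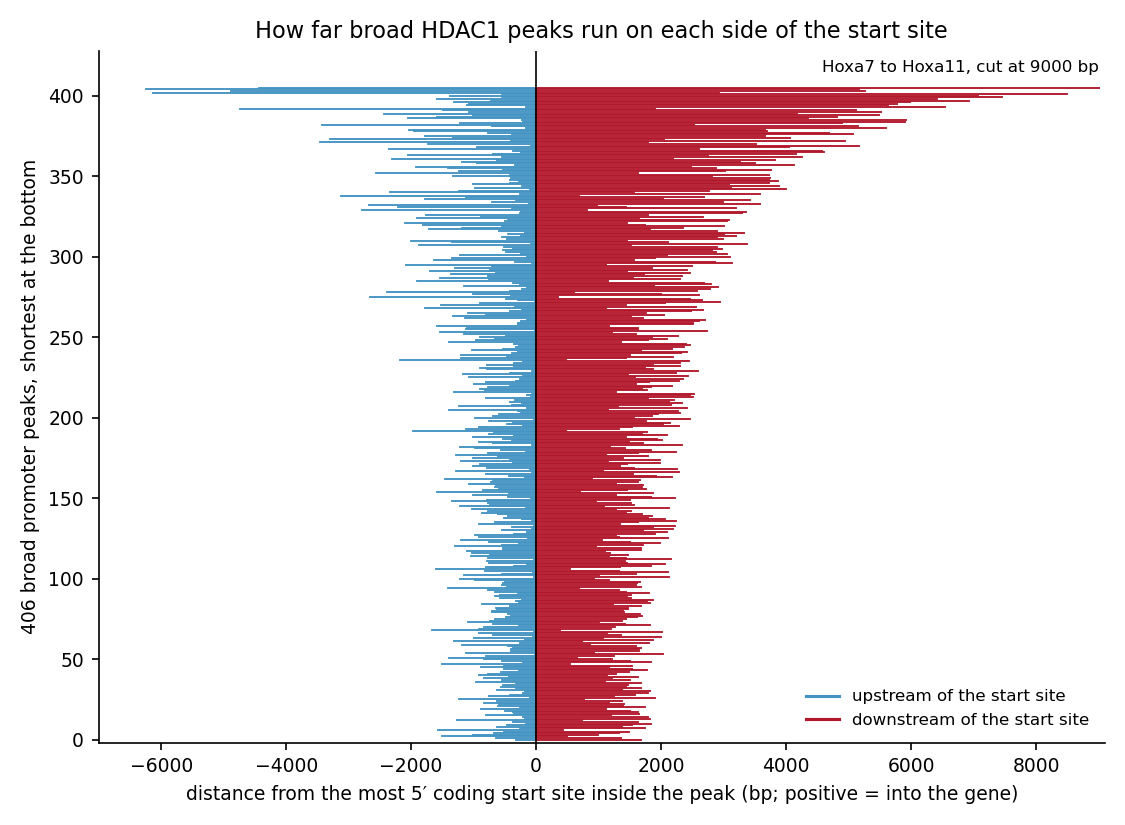
Each horizontal line is 1 of the 406 members with a coding TSS inside, ordered by length, and shows the bases covered upstream (blue) and downstream (red) of the most 5′ coding TSS in the peak (x axis, bp). The downstream part is the longer one in 346 members, and the line of the Hoxa peak is cut at the right margin.

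After the Hoxa peak and Bahcc1, the members that ran farthest into or past a gene were those at Wnt5a (7450 bp), Hand2 (7067 bp), Pitx1 (6926 bp), Lhx2 (6541 bp), Prrx1 (6411 bp), Meis1 (5986 bp), Foxc1 (5917 bp) and Tgif1 (5897 bp). All 8 are genes of a signaling ligand or of transcription factors. Lhx2 encodes a LIM homeodomain factor of the distal limb mesenchyme, Foxc1 a forkhead factor, and Tgif1 a homeobox repressor that works with Smad proteins. The peak at Lhx2 was the most one-sided of them on this measure, with 159 bp upstream.

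Broad peaks usually ended inside the first intron. The downstream edge lay in the first exon in 31 of 406 members (7.64%), in the first intron in 229 (56.4%), in a later exon in 32 (7.88%), in a later intron in 86 (21.2%) and past the 3′ end of the transcript in 28 (6.90%). Among 6400 narrow peaks the shares were 22.4% for the first exon, 69.8% for the first intron and 0.328% past the 3′ end. The start codon lay inside 77.8% of broad and 58.0% of narrow peaks, and the peak reached a second exon in 32.8% and 7.53%. These shares follow in part from length, which the rule fixed, and no test of them was made.

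The 28 members that held a whole coding transcript lay over short transcripts, with a median of 2327.5 bp. By transcript length the 10 longest were at Pitx1 (6375 bp), Foxc1 (5844 bp), Sox4 (4795 bp), Zic2 (4418 bp), Zfp36l2 (4017 bp), Hoxa11 (3705 bp), Fzd2 (3663 bp), Hand2 (3651 bp), Zcchc3 (3073 bp) and Gas1 (2961 bp). Of these 10 genes, 6 encode transcription factors, namely Pitx1, Foxc1, Sox4, Zic2, Hoxa11 and Hand2. Single-exon transcripts made up 7.88% of the members' reference transcripts and 2.61% of those at narrow peaks. The genes themselves were not short. The median gene span was 30929.5 bp at broad peaks (interval 26437 to 42174 bp), 30144 bp at narrow peaks and 17347.5 bp over all 21886 coding genes.

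The 29 members without a coding TSS inside lay next to one, at a median distance of 400 bp. In 25 of them the peak lay downstream of the TSS and in 4 upstream. At Shh, the limb's hedgehog ligand gene, the peak of 2650 bp (place 879) began 457 bp inside the gene. At Bmp4, a BMP ligand gene, a peak of 2500 bp began 551 bp downstream. Tbx5, the forelimb T-box gene, had a broad peak on each side. That of 6150 bp (place 173) began 137 bp downstream, that of 4000 bp (place 1394) ended 164 bp upstream, and neither covered the TSS used for the window.

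By annotation, the members together covered 1344.3 kb, of which 13.9% was coding sequence, 21.5% other exon sequence, 50.2% intron and 14.4% between genes. For narrow promoter peaks the corresponding shares were 14.4%, 28.0%, 42.5% and 15.1%. The members were 2.83% of the peaks and 13.4% of all bases in peaks.

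Members with several genes were few. The TSSs of 2 or more coding genes lay inside 29 members (6.67%, interval 4.68 to 9.41%) and inside 5.22% of narrow promoter peaks. In 24 of the 29 they were on opposite strands, that is, at promoters shared by a divergent or overlapping pair. After the Hoxa peak with 4 genes, all had 2, and the highest in the list were Brd2 with H2-DMa at place 26, Cdca2 with Kctd9 at 42, Mab21l2 with Lrba at 51 and Srsf2 with Mfsd11 at 75. A long noncoding RNA TSS lay inside 89 members (20.5%, interval 16.9 to 24.5%), against 5.74% of narrow promoter peaks, which cover fewer bases each.

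All 435 members overlapped a CpG-dense stretch, defined here as joined windows of 200 bp with a GC content of at least 50% and a ratio of observed to expected CpG of at least 0.6. So did 95.8% of narrow promoter peaks. The CpG-dense DNA was longer at broad peaks. The longest stretch had a median of 2023 bp (interval 1924 to 2092 bp) at broad and 1100 bp (interval 1090 to 1109 bp) at narrow promoter peaks, measured over the whole stretch whether or not the peak covered it. A stretch of at least 2000 bp was found at 223 members (51.3%) and at 5.71% of narrow promoter peaks. Since a longer peak touches more stretches, the comparison was also made in windows of fixed size placed relative to the TSS. Their anchor, the most 5′ coding TSS inside the peak, can still shift with peak length, so members with a single gene start are given as well.

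In the 1000 bp centred on the TSS, the median GC content was 66.6% at broad peaks (interval 65.6 to 67.7%), 62.7% at narrow peaks (interval 62.5 to 62.9%) and 55.2% over all coding genes. The median ratio of observed to expected CpG was 0.85, 0.80 and 0.57. The values were farther apart in 1000 bp centred 1500 bp downstream of the TSS, where the ratio was 0.59 (interval 0.56 to 0.61) at broad and 0.26 (interval 0.25 to 0.26) at narrow peaks. In the corresponding window 1500 bp upstream it was 0.34 (interval 0.31 to 0.37) and 0.21. For the 174 members with a single gene start the ratio was 0.85 at the TSS, 0.58 (interval 0.55 to 0.62) in the downstream window and 0.35 (interval 0.32 to 0.39) in the upstream window. For the 3068 narrow peaks of this kind it was 0.80, 0.25 and 0.20. The DNA at broad peaks was thus CpG-rich farther into the gene than at narrow peaks, on the side to which the peaks leaned.

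**Figure D4:**
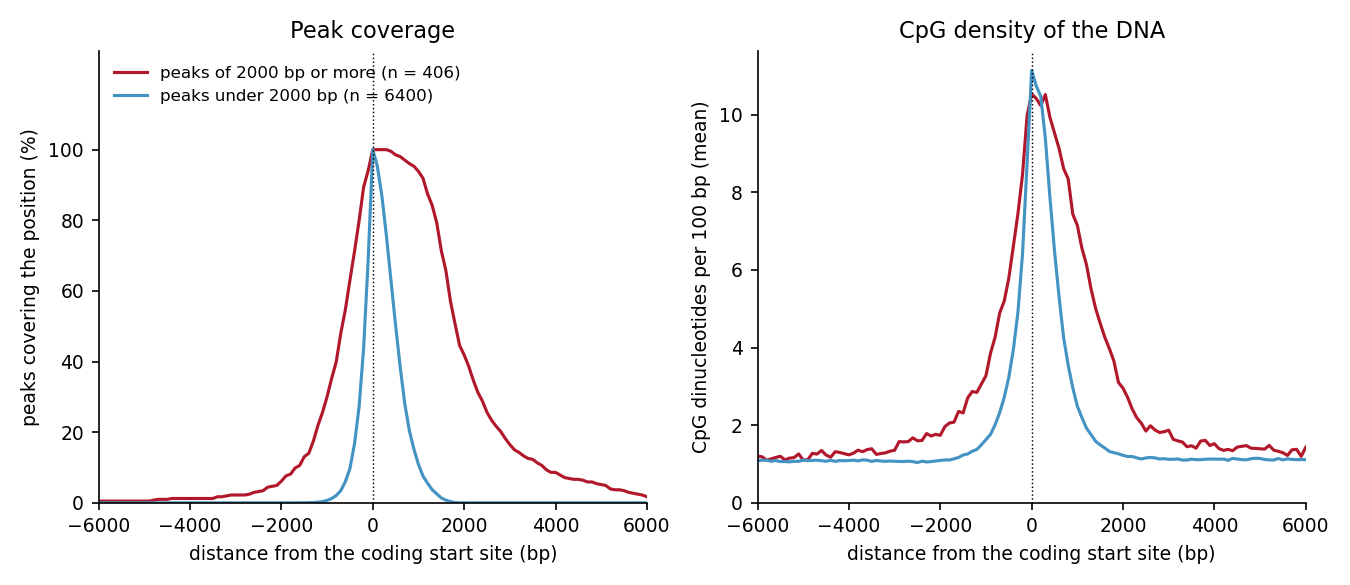
Share of peaks that cover each position (left, %) and mean number of CpG dinucleotides per 100 bp of genomic DNA (right) against distance from the coding TSS (bp, positive into the gene), for 406 broad (red) and 6400 narrow (blue) promoter peaks with a TSS inside. Coverage by broad peaks falls more slowly downstream than upstream, and their CpG density does the same.

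Longer peaks were CpG-dense over a smaller share of their length. Of all members, 76.3% (332) were longer than their longest CpG-dense stretch, while 52.9% overlapped 2 or more such stretches. The longest stretch at any member measured 4747 bp, so peaks longer than that exceed it by construction. From the shortest to the longest length class the median share of the peak that was CpG-dense was 90.4, 87.1, 79.9, 66.6 and 58.8%. At Prrx1 it was 23.3%, at Hoxd10 38.3% and over the Hoxa peak 45.9%, the lowest 3 of the 10 longest members. Across members Spearman's rho between length and the longest CpG-dense stretch was 0.13, a weak relation given only as a description.

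Motifs were searched in the RefSeq promoters, each running from 250 bases before to 50 bases after the start, on both strands, and none of the motifs contains another. There were 393 such promoters of 332 genes wholly inside a broad promoter peak and 2904 wholly inside a narrow one, out of 32851 in all. The GC box, GGGCGG, to which Sp1 family factors bind, was present in 76.3% of promoters in broad peaks, 75.8% in narrow peaks and 35.7% of all promoters. The letters CCAAT were present in 34.1%, 25.4% and 37.4%. The TATA box letters TATAAA were found in 6.62% (interval 4.55 to 9.52%), 3.48% and 13.6%.

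The ETS motif was present in a smaller share of the promoters in broad than in narrow peaks. Its letters, CCGGAAG, were found in 5.60% (interval 3.73 to 8.33%) of promoters in broad peaks, in 24.2% (interval 22.7 to 25.8%) of those in narrow peaks and in 8.86% of all promoters. The E-box CACGTG was found in 9.41%, 10.4% and 7.15%, and the cyclic AMP response element TGACGTCA in 1.78%, 2.72% and 1.79%. The GLI motif GACCACCCA was present in 0 of 393 promoters in broad peaks (upper bound 0.968%), 0.138% of those in narrow peaks and 0.253% of all. A match is only a string of letters, and its absence says nothing about a factor. A narrow peak has to lie well centred on the start to contain the 300 bases, so the 2904 are a selected part of the narrow peaks.

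The broad peaks were assigned to 462 of the 21886 annotated coding genes, a background of 2.11%, while 44.0% had a peak of any length at the promoter. Named lists of genes were read against these shares, without a test. As the lists were compiled with earlier results of these data known, their counts are descriptions. Neighbouring genes can share 1 peak, as the Hoxa genes do.

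Among 52 transcription factors of limb patterning, 26 had a broad peak (50%, interval 36.9 to 63.1%), 24 only a narrow one and 2 none. The longest were at Lmx1b, Hand2, Prrx1 and Pitx1, described above. The median of the longest peak per bound gene was 2000 bp, against 650 bp over all bound coding genes. Among 39 Hox genes 13 had a broad peak (33.3%, interval 20.6 to 49%), 15 a narrow one and 11 none. The 13 include the 4 genes that share the Hoxa peak, and also Hoxa3 and Hoxa6, whose windows met the same peak of 3550 bp (place 1824). That peak lay at the far 5′ end of the annotated Hoxa3 gene, which spans 44275 bp. It met the window upstream of Hoxa6 but held no Hoxa6 TSS. The others of the 13 were also Hoxa and Hoxd genes, except for Hoxc11 (2300 bp). Hoxd12 and Hoxd13 had only narrow peaks, the longest of 1800 and 1600 bp. The Hoxa and Hoxd clusters are the ones known for patterning the limb.

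The signaling pathways had shares between those of these factors and the background. In the FGF pathway 8 of 26 genes had a broad peak (30.8%, interval 16.5 to 50%). They included the feedback inhibitors Dusp6 (6600 bp, place 22), Spry2 (5400 bp, place 140) and Dusp4 (4950 bp, place 524), and the receptor gene Fgfr2. By its annotated TSSs Fgfr2 was assigned 2 members. That of 4150 bp (place 352) also met the TSS window of Ctbp2, so its length is not taken as that of a peak at Fgfr2. The other measured 2900 bp (place 1022), and by it alone Fgfr2 counts among the 8. In the BMP pathway 8 of 31 genes had one (25.8%, interval 13.7 to 43.2%), among them the inhibitory Smad gene Smad6 (4450 bp, place 89), the target Id3 (2700 bp) and the ligand gene Bmp4 (2500 bp).

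In the Hedgehog pathway 7 of 30 genes had a broad peak (23.3%, interval 11.8 to 40.9%). The receptor gene Ptch1 had 4300 bp at place 46, running 2886 bp into the gene and 1414 bp upstream. The co-receptor gene Gas1 also had 4300 bp, while the transcription factor genes Gli3 and Gli1 had 3050 bp (place 284) and 3000 bp (place 1935). In both Gli genes the peak lay mostly downstream, by 2799 bp at Gli3 and 2775 bp at Gli1. In the Wnt pathway 10 of 50 genes had a broad peak (20%, interval 11.2 to 33.0%), the longest at the ligand gene Wnt5a, the receptor genes Fzd2 and Fzd7 (3350 bp, place 35) and the transcription factor gene Tcf7l2 (4150 bp, place 119).

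Broad peaks were not limited to developmental genes. Among 46 splicing factors 12 had one (26.1%, interval 15.6 to 40.3%) and the other 34 a narrow one. These members were of moderate length, with 3550 bp at Hnrnpa2b1, 2950 bp at Hnrnpa0, and 2750 bp each at Hnrnpk and Hnrnpu. Among 35 immediate early genes 8 had one (22.9%), led by Zfp36l2 and Zfp36l1 (5250 bp, place 77), which encode proteins that destabilise mRNA, followed by Egr3 (3350 bp) and Ier2 (3250 bp, place 78). Among 40 cell cycle regulators 8 had one (20%), including Mycn (4100 bp, place 184), Cdk6 (3600 bp, place 587) and Ccnd1 (2700 bp, place 893).

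Of 43 genes of histone deacetylase and corepressor complexes, 42 had an HDAC1 peak of any length and 7 a broad one (16.3%, interval 8.12 to 30.0%). These included the Sin3 subunit genes Ing1 (2600 bp) and Ing2 (2350 bp), the Ski family gene Skil (2350 bp) and Tbl1xr1 (2250 bp), which encodes a subunit of the NCoR complex. Among 38 Polycomb group genes 33 had any peak and 2 a broad one (5.26%, interval 1.46 to 17.3%), namely Bcor (3050 bp) and Jarid2 (2450 bp).

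Of 78 ribosomal protein genes 72 had a peak (92.3%), and all 72 were narrow. Their median longest peak of 800 bp was above the 650 bp of all bound coding genes. The share with a broad peak was 0 of 78, and its upper interval bound of 4.69% lay above the 2.11% of all coding genes, so it cannot be set apart from the background. Among 32 cartilage and bone genes 16 had a peak (50%) and 1 a broad one (3.12%, interval 0.554 to 15.7%), at Foxc1 (6150 bp), which is near the background on both counts. Among 26 genes of muscle precursors 15 had a peak (57.7%) and 3 a broad one (interval 4 to 29% of the list), among them Gab1 (2050 bp), which encodes an adaptor protein of receptor signaling. Of 29 liver secretory genes, a list for a tissue that is not part of the bud, 1 had a peak (3.45%, against 44.0% of all coding genes) and 0 a broad one (upper bound 11.7%).

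**Figure D5:**
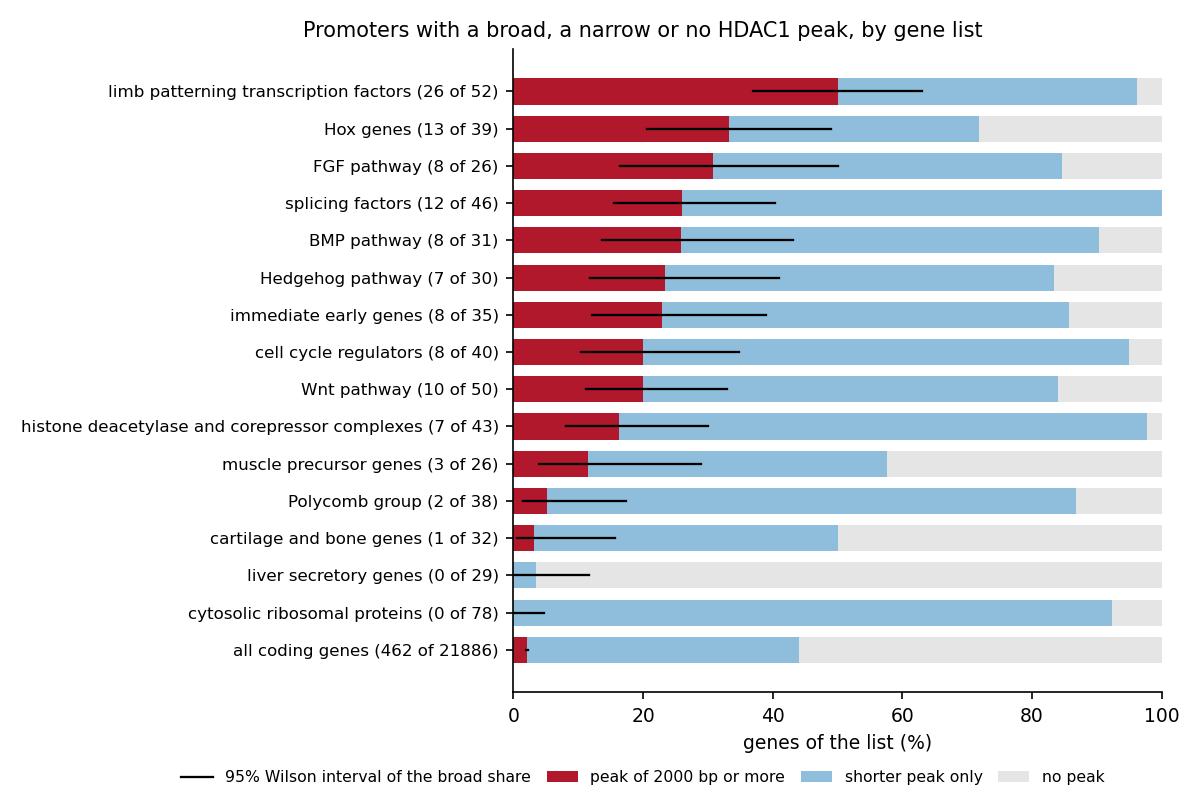
Share of each gene list (x axis, %) with a broad peak (red), only a shorter peak (blue) or no HDAC1 peak (grey) at the promoter, with the 95% Wilson interval of the broad share as a black line and the number of genes with a broad peak in parentheses. Limb patterning factors have the highest share with a broad peak, at 26 of 52 genes, and ribosomal protein and liver genes have none.

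In all, 113 of the 462 genes with a member (24.5%) belonged to at least 1 of the 15 lists. The lists together name 600 genes, and there are 21886 coding genes in all. By annotated TSSs a gene had 2 members in 12 cases, among them Tbx5, Bahcc1 and Fgfr2, with the Fgfr2 peak shared with Ctbp2 counted. The genes Auts2, Gse1 and Mecom were also among them and were named here after their values were seen.

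Broad promoter peaks often had neighbours. Another HDAC1 peak lay within 1 kb of 222 members (51%, interval 46.3 to 55.7%), against 35.9% of narrow promoter peaks. The number of other peaks within 10 kb reached 13 at Hoxd11. With neighbouring peaks joined over gaps of up to 1000 bp, 836 broad promoter peaks were counted instead of 435.

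Of all 478 broad peaks, 91.0% (interval 88.1 to 93.3%) were members. Among all 15347 peaks, 10759 were promoter peaks by the same window. A longer peak meets the window more easily under the overlap rule used. Under the stricter overlap rule of the last section, the share of broad peaks at a coding promoter was 70.1%. The share of all peaks under that stricter rule was not measured, so the 70.1% has no counterpart here. The 91.0% is therefore a description, and a preference of broad peaks for promoters was not tested. The 43 broad peaks away from coding promoters were the closest comparison by length. Their median place in the list was 1224 (interval 878 to 2034), later than the members' 561, at a median length of 2400 bp. Their longest CpG-dense stretch had a median of 1336 bp (interval 526 to 1708 bp), below the 2023 bp of the members. A long noncoding RNA TSS lay inside 30.2% of them (interval 18.6 to 45.1%), another peak lay within 1 kb of 72.1%, and 33.3% of their bases lay between genes.

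Members were found on 20 of the 21 chromosomes with peaks. The number per 1000 coding genes ranged from 2.11 on chromosome X, with 2 members, to 37.3 on chromosome 12, with 24.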

How the data were processed

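HDAC1 ChIP-seq was carried out by the authors on 4 ChIP and 3 input samples of pooled limb buds. Per the labels, reads were aligned with Bowtie2 (version 2.2.5) to mm10. CisGenome was used by the authors to call peaks (false discovery rate under 0.05) over the pooled ChIP samples, and they deposited 1 ranked list of 15347 peaks. Its deposited columns are coordinates, of the kind other than counts or signal, in steps of 50 bp. They hold no depth, so counting precision is unknown, and intervals cover only the number of peaks or genes.

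Peaks were read as 1-based closed intervals and compared with the GENCODE M21 basic annotation, the GRCm38.p6 sequence and RefSeq promoters of the same build. Coding genes were those with at least 1 protein-coding basic transcript (21886 genes). The members, the 15 gene lists and the measures were chosen with earlier results of these data known. No test over regions was made. Genes were named from the 10 longest members, the 10 highest in the list, the 10 with the most downstream bases, the 5 with the most genes, the 3 members and 3 shorter peaks nearest the length minimum, the 10 longest whole transcripts and up to 4 of the longest per gene list. Some of the last are not reported here. Genes whose sequences are shown were chosen by the rule given there, with chromosome 18 left aside. Overlaps, reach and CpG-dense stretches were tested on simulated data. Alternatives covered the length minimum, TSS window, TSS set, list depth, overlap, merging and CpG criteria. The tools were Python 3.11.15 with numpy 2.4.6 and scipy 1.17.1, and matplotlib 3.10.9 for figures.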

Additional observations from a re-analysis of the deposited data

How the results depend on the processing

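Of 78 alternative values over 11 settings, 47 stayed within 1.5 times the count, or within the interval of the share or median, and 31 moved beyond it. Of the 47, 9 come from keeping the first 7674 peaks of the list, which could not change a value because all broad peaks lie among them, so 38 remain. The CpG ratios of members with a single gene start, an alternative chosen after seeing the data, stayed within the intervals of all members. None reversed the order of downstream over upstream reach. With a length minimum of 1500 bp there were 988 members, at 4.87% of coding genes, with median reaches of 1430 bp downstream and 520 bp upstream. With a minimum of 3000 bp there were 141, at 0.695% of genes, with 3023 and 985 bp, and 94.0% of peaks of that length lay at a coding promoter. That share was 94.1% with a window of 5 kb on both sides, 95% with the TSSs of all basic transcripts, and 70.1% where the window had to hold at least 50% of the peak, which also gave 1680 bp downstream and 1.68% of genes. Merging peaks within 1000 bp gave 836 members, at 4.19% of genes, with 1940 and 750 bp. The TSS nearest the midpoint gave 1640 and 875 bp. The fewer or further peaks that each setting admits follow from its construction. No paired analysis was possible because replicates were pooled before peaks were called, and for the same reason no replicate could be left out.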
